A study of Mus musculus with 6 samples.

Results

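Transcript levels of 9 genes that signal through receptor tyrosine kinases were examined in primary mouse mesangial cells with and without TGF-β1 treatment. The 9 genes were 4 ligands of the epidermal growth factor (EGF) family (Hbegf, Areg, Ereg and Nrg1), 3 receptors of the ERBB family (Egfr, Erbb2 and Erbb3), the ligand Hgf and its receptor Met. They were chosen by gene symbol, and each was found once among the 19730 rows of the expression table. Of the 9 genes, 7 had a mean level of at least 1 FPKM over the 6 libraries and were tested. FPKM counts fragments relative to the length of the transcript and to the mapped fragments of the library, so levels of different genes can be set side by side per length.

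RNA-Seq was performed on 3 Control and 3 TGF-β1 libraries of mesangial cells, which hold the glomerular capillaries together. TGF-β1, a cytokine that drives matrix production, was given at 10 ng/ml for 72 h. Cells of both groups were grown in high glucose medium (25.5 mM) with 20% foetal bovine serum and were used at passages 3 to 6. The study speaks of biological replicates for its methylation and histone libraries. For the RNA libraries the sources used here do not say whether replicates came from separate cultures, so the p-values measure the spread between these libraries, which may be technical.

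Ligands of the EGF family are made as membrane-anchored precursors that metalloproteases of the ADAM family cut from the cell surface. HB-EGF (Hbegf), amphiregulin (Areg) and epiregulin (Ereg) bind the EGF receptor, whereas neuregulin 1 (Nrg1) binds ERBB3 and ERBB4. ERBB2 has no known ligand of its own and pairs with the other receptors. HGF is a ligand made mainly by mesenchymal cells, and serine proteases cleave it before it activates MET.

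Depth, recovered from the steps between the lowest FPKM values, was 10.1 to 11.1 M fragments per library. Libraries of the same group correlated with r of 0.876 to 0.940 over tested rows, and libraries of different groups with r of 0.818 to 0.853. The replicate 2 libraries of the 2 groups deviated together from their group means, with r = 0.232 across genes. Libraries with different numbers had r of -0.194 to 0.117. Changes are therefore also given for replicates 1 and 3 alone. The label of mesangial cells was checked against 9 markers. Vim was at 1922 to 2376 FPKM in Control and 3249 to 3598 FPKM in TGF-β1 libraries. Gata3 was at 0.756 to 2.42 and 0.846 to 1.26 FPKM, and Cspg4 at 0.0473 to 0.116 and 0.918 to 1.37 FPKM. Acta2 was at 912 to 1091 FPKM in Control and 3587 to 4268 FPKM in TGF-β1 libraries, and Pdgfrb at 32.0 to 41.1 and 28.4 to 29.9 FPKM, whereas Itga8, Thy1, Des and Pdgfra were below 1 FPKM in every library. The tubular epithelial markers Pax8 (108 to 137 FPKM) and Cdh16 (114 to 146 FPKM) were abundant in Control libraries, which goes against the label in part. All 5 endothelial markers measured were below 1 FPKM throughout. Of the 6 macrophage markers measured, Ptprc, Lyz2 and Itgam were below 1 FPKM throughout as well. The others were not, with Cd14 at 78.8 to 104, Csf1r at 5.52 to 7.375 and Cd68 at 2.015 to 3.675 FPKM in Control libraries.

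Ligands and receptors moved in opposite directions among the 7 tested genes. With TGF-β1 the ligands Hbegf, Nrg1, Areg and Ereg were upregulated, and Egfr, Erbb2 and Met were downregulated (limma, adjusted p under 0.05). Changed genes made up 48.1% of the 11898 tested rows, upregulated genes 24.5% and downregulated genes 23.6%. Control and TGF-β1 libraries did not overlap in any of the 7 genes, nor in 59.4% of all tested rows. Areg and Ereg reached the level required for testing only through the TGF-β1 group, so they were bound to differ once tested. The remaining members, Erbb3 and Hgf, were close to 0 in all libraries. In bulk RNA, a change in the share of cells that express a gene and a change in RNA per cell cannot be told apart.

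**Figure D1:**
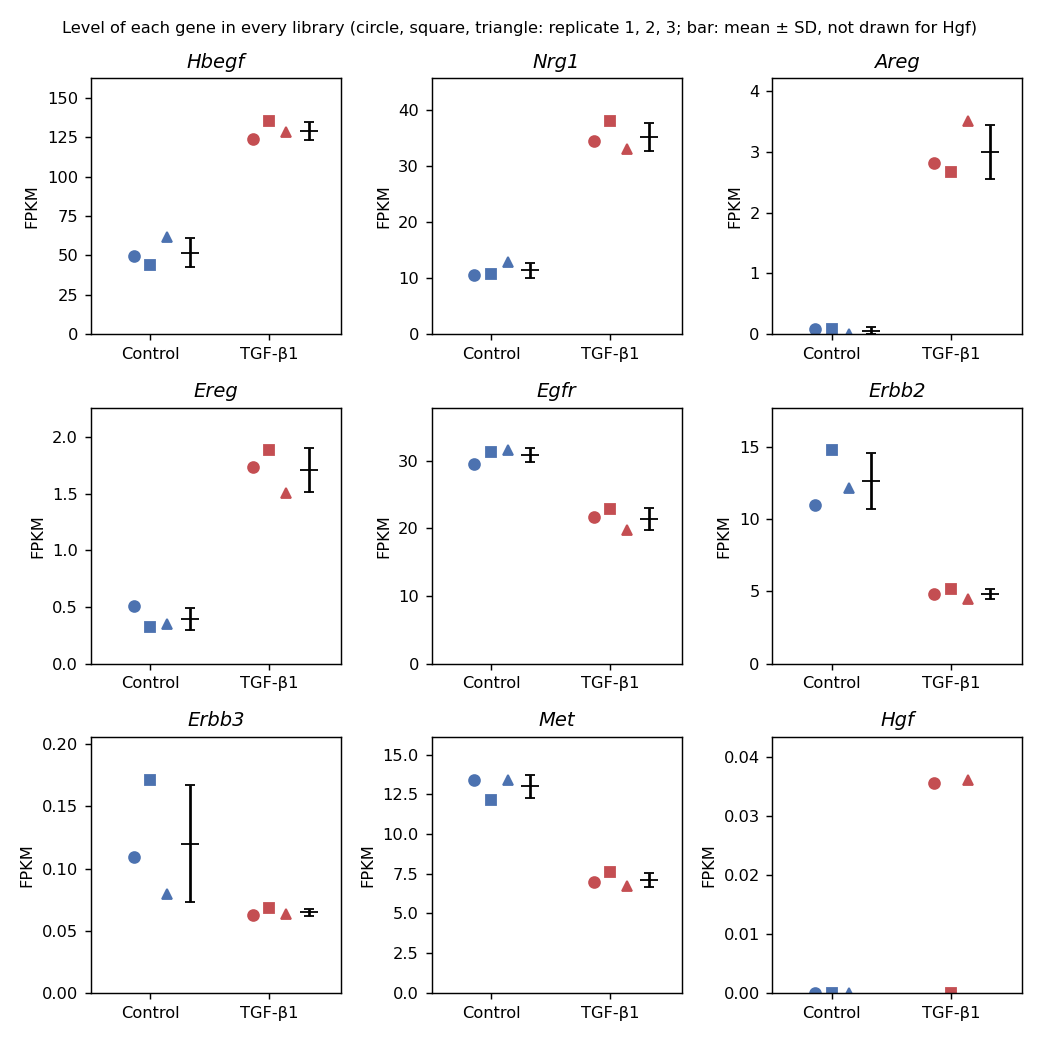
Level in FPKM (linear axes, each with its own range) of the 9 genes in each library, with Control in blue and TGF-β1 in red, and the mean ± SD (n = 3) drawn beside the points of every gene but Hgf. The TGF-β1 points lie above all Control points for Hbegf, Nrg1, Areg and Ereg and below them for Egfr, Erbb2, Erbb3 and Met, and all Hgf points are below 0.04 FPKM.

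Hbegf, a heparin-binding ligand of EGFR, was the most abundant of the 9 genes in both groups. Its levels were 49.6, 44.0 and 61.8 FPKM in Control replicates 1 to 3 and 124, 135 and 128 FPKM in TGF-β1 replicates 1 to 3. The lowest treated library was thus above the highest control library. Mean Hbegf rose from 51.8 ± 9.10 to 129 ± 5.81 FPKM (SD, n = 3), which is 2.49-fold. The log2 change was 1.31 (SE 0.132, 95% interval 0.99 to 1.63, limma adjusted p = 0.000479), and 1.17 in replicates 1 and 3 alone. Hbegf lies on chromosome 18 of mm9 (36664583 to 36675459, minus strand) and has 1 annotated transcript.

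Nrg1, the neuregulin that acts on ERBB3 and ERBB4, was the second most abundant ligand. Control replicates 1 to 3 held it at 10.6, 10.7 and 12.9 FPKM, and it was at 34.6, 38.1 and 33.2 FPKM in the treated replicates. All treated libraries were above all control libraries. The mean rose 3.09-fold, from 11.4 ± 1.29 to 35.3 ± 2.53 FPKM (SD, n = 3), with a log2 change of 1.55 (SE 0.104, 95% interval 1.30 to 1.80, limma adjusted p = 0.000108). In replicates 1 and 3 alone the log2 change was 1.45. Nrg1 (chromosome 8, 32928500 to 33119581, minus strand) has 3 annotated transcripts and overlaps Gm17443 on the opposite strand. No source says whether strand was used in the FPKM estimate, so reads of overlapping genes cannot be told apart.

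Areg encodes amphiregulin, an EGFR ligand of lower affinity. Control replicates had 0.0900, 0.0903 and 0 FPKM and TGF-β1 replicates 2.83, 2.67 and 3.51 FPKM. By the recovered depth these values correspond to 1, 1 and 0 fragments in Control libraries and to 31, 27 and 38 fragments in treated libraries. Areg was therefore nearly undetected without TGF-β1 and low, but measured in every library, with it. Summed over libraries, 2 fragments stood against 96, a ratio of 49.5 after allowing for depth (95% exact interval 13.3 to 414, for counting error only). The change was 1.91 on log2(FPKM + 1), a scale that compresses changes of low genes (SE 0.136, 95% interval 1.58 to 2.24, limma adjusted p = 0.000133). It was 1.99 in replicates 1 and 3 alone and 4.33 with a pseudocount of 0.1. Since Areg met the filter only through the TGF-β1 group, its limma interval and p carry no weight as a test.

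Ereg encodes epiregulin, which activates both EGFR and ERBB4. Its levels were 0.506, 0.322 and 0.354 FPKM in Control libraries and 1.74, 1.88 and 1.502 FPKM in TGF-β1 libraries. They correspond to 22, 14 and 15 fragments against 75, 75 and 64 fragments. Each treated library thus held more Ereg than each control library. The mean rose from 0.394 ± 0.0983 to 1.71 ± 0.191 FPKM (SD, n = 3), 4.33-fold, with a log2 change of 0.96 (SE 0.131, 95% interval 0.64 to 1.27, limma adjusted p = 0.00167). The change was 0.87 in replicates 1 and 3 alone and 1.88 with a pseudocount of 0.1. The fragments summed to 51 and 214, a ratio of 4.3 (95% exact interval 3.2 to 6.0). Ereg too met the filter only through the TGF-β1 group, so its limma interval and p carry no weight as a test.

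Areg and Ereg are neighbours on chromosome 5 of mm9. Ereg (91503643 to 91522675) ends 46.0 kb before the start of Areg (91568641 to 91577458), and both lie on the plus strand. The EGFR ligands Epgn and Btc flank them, and the 4 genes span 375.4 kb. Epgn, which encodes epigen, was at 0.116, 0 and 0.0594 FPKM in Control and 0.175, 0 and 0.237 FPKM in TGF-β1 libraries. Btc, which encodes betacellulin, was at 0.209, 0.209 and 0.215 FPKM in Control and 0.211, 0.266 and 0.427 FPKM in TGF-β1 libraries. Both outer genes stayed below 1 FPKM, and their groups overlapped (limma without a filter on low values, adjusted p = 0.466 and 0.372). A p that misses the threshold does not show that they did not change.

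**Figure D2:**
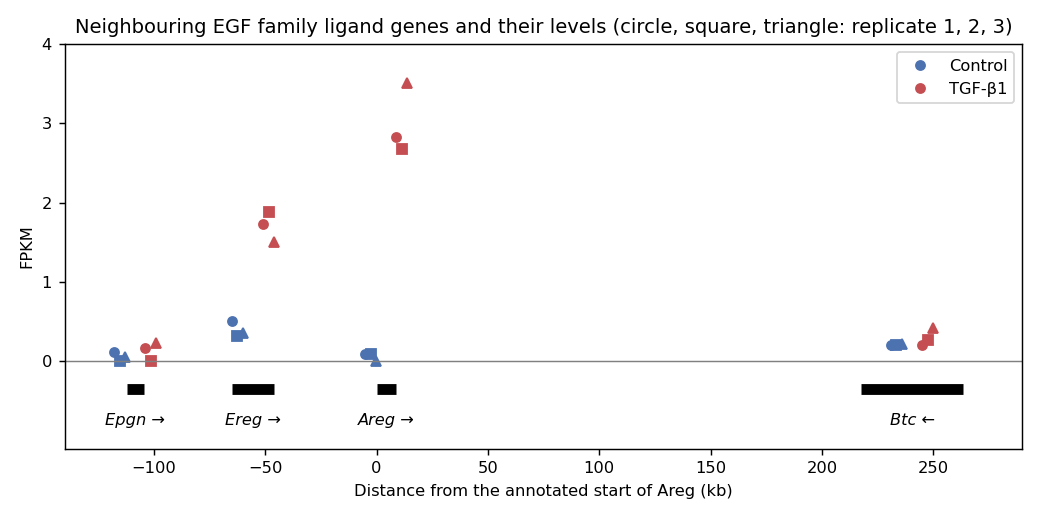
FPKM of Epgn, Ereg, Areg and Btc (linear axis) over the distance of each gene from the annotated start of Areg in kb, with gene bodies as black bars, arrows for the strand, blue points for Control and red points for TGF-β1 libraries. Treated points of Ereg (1.502 to 1.88) and Areg (2.67 to 3.51) stand above their controls, and all points of Epgn and Btc are below 0.5 FPKM.

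The bases before the annotated start of Areg, Egfr and Erbb2 are shown because Areg had the largest rise of the tested genes and the other two are receptors that fell. Windows of 300 bases (250 before and 50 after the start of the transcript that the row names) were read from mm9 for 15987 rows of protein-coding genes, and the 250 bases before the start are printed 5′ to 3′. Capitals mark matches, on either strand, to the cAMP response element TGACGTCA, the AP-1 site TGANTCA, the SMAD-related CAGACA, the GC box GGGCGG or the TATA box TATAAA.
Areg, chr5:91568391-91568640, + strand: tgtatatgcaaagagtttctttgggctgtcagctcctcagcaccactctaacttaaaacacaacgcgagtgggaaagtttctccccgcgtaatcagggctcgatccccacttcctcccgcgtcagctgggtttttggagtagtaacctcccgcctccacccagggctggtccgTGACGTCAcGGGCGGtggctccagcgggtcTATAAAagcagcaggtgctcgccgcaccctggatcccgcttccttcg
Egfr, chr11:16651956-16652205, + strand: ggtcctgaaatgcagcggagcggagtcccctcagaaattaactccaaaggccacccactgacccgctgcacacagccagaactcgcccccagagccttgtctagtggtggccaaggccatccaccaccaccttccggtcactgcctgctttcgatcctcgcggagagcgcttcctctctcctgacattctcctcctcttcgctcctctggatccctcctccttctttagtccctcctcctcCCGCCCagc
Erbb2, chr11:98273534-98273783, + strand: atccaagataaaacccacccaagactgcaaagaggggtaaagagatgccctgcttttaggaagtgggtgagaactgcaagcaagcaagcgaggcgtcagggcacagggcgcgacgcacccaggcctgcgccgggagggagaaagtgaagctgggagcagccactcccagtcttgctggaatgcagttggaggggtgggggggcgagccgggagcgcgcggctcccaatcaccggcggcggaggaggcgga
The Areg window held TGACGTCA at position -77, a GC box close after it at -68 and a TATA box at -47, counted from the start. A further GC box lay at 22 bases after the start, outside the printed stretch. The Egfr window held a GC box at -9, and the Erbb2 window held none of the 5 motifs. CAGACA was found in windows not printed here, on either strand. These were the windows of Nrg1 (17 and 23 bases after the start), Met (28 bases after it) and Erbb3 (at -38 and -34). Among all windows, 2.75% held TGACGTCA, 5.69% TGANTCA, 17.6% CAGACA, 54.1% GGGCGG and 9.20% TATAAA. A match describes letters only and is not a bound site.

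Egfr encodes the receptor of HB-EGF, amphiregulin and epiregulin. It was the second most abundant of the 9 genes in Control cells, at 29.6, 31.3 and 31.5 FPKM, and was at 21.6, 22.8 and 19.7 FPKM with TGF-β1. The highest treated library was below the lowest control library. The mean was 1.44-fold lower (30.8 ± 1.07 against 21.4 ± 1.57 FPKM, SD, n = 3), with a log2 change of -0.51 (SE 0.082, 95% interval -0.71 to -0.31, limma adjusted p = 0.00327). This was the smallest change among the 7 tested genes, and 39.9% of all tested rows changed by at least as much in either direction. In replicates 1 and 3 alone it was -0.54. Egfr (chromosome 11, 16652206 to 16818161, plus strand) overlaps Gm17664 and E230015J15Rik on the opposite strand. Its row names a 2212-nt transcript, 1 of 6 annotated, and the sources do not say whether the value covers the whole gene. The rank of Egfr and the sums and ratios that use it carry this limit.

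Erbb2, the receptor without a ligand of its own, had the largest decrease among the 7 tested genes. Its levels were 10.98, 14.8 and 12.1 FPKM in Control replicates 1 to 3 and 4.80, 5.15 and 4.47 FPKM in the treated ones. Treated libraries were all below control libraries. The mean was 2.63-fold lower (12.6 ± 1.94 against 4.81 ± 0.342 FPKM, SD, n = 3), with a log2 change of -1.22 (SE 0.123, 95% interval -1.52 to -0.92, limma adjusted p = 0.00048). The change was -1.16 in replicates 1 and 3 alone, and 10.5% of all tested rows changed by at least as much. Erbb2 (chromosome 11, 98273784 to 98299030, plus strand) overlaps a U6 gene and 1810046J19Rik on the opposite strand.

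Erbb3, a receptor with little kinase activity that binds neuregulins, was at 0.109, 0.171 and 0.0798 FPKM in Control and 0.0627, 0.0679 and 0.0636 FPKM in TGF-β1 libraries. These values rest on 7, 11 and 5 fragments and on 4, 4 and 4 fragments. The treated libraries were the lower ones, without overlap. Without a filter on low values, where 30.5% of 19730 rows changed, the log2 change of Erbb3 was -0.07 (95% interval -0.18 to 0.04, limma adjusted p = 0.294). On log2(FPKM + 1) values this low leave almost no room for a change, so this fit cannot decide whether Erbb3 fell. Its mean FPKM was 1.855-fold lower with TGF-β1. Erbb4, the other neuregulin receptor, was listed at 0 in 4 libraries and at no more than 0.0160 FPKM in the other 2. The receptors that bind NRG1 directly were thus at or near the limit of detection in both groups, while Nrg1 itself was at 33.2 FPKM or more with TGF-β1.

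Met encodes the HGF receptor. Control replicates had 13.4, 12.2 and 13.4 FPKM of it, and TGF-β1 replicates had 6.98, 7.63 and 6.73 FPKM. Every treated library was below every control library. The mean was 1.83-fold lower (13 ± 0.719 against 7.11 ± 0.466 FPKM, SD, n = 3), with a log2 change of -0.79 (SE 0.086, 95% interval -1.0 to -0.58, limma adjusted p = 0.000665) and of -0.88 in replicates 1 and 3 alone. Met lies on chromosome 6 (17413800 to 17523980, plus strand). Its ligand Hgf was listed at 0 in all Control libraries and at 0.0357, 0 and 0.0362 FPKM with TGF-β1. Those values correspond to 1, 0 and 1 fragments, which is too few for a comparison (limma without a filter, adjusted p = 0.496). Hgf (chromosome 5, 16059368 to 16125257, plus strand) was thus near the limit of detection at this depth in these cultures.

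**Figure D3:**
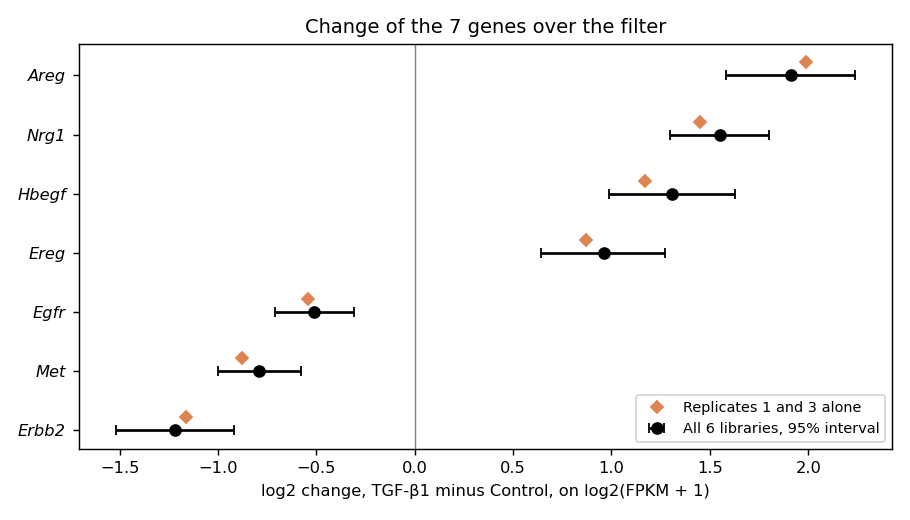
Change of the 7 tested genes (TGF-β1 minus Control) on the log2(FPKM + 1) scale, with 95% intervals from all 6 libraries in black and the change in replicates 1 and 3 alone as orange diamonds. Changes run from 1.91 for Areg to -1.22 for Erbb2, no interval reaches 0, and each diamond lies inside its interval. Areg and Ereg were bound to differ, as both met the filter only through the TGF-β1 group.

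Several markers of other cell types were lower in the same libraries as the receptors. All 3 tested epithelial markers were downregulated with a median log2 change of -4.16. Pax8 went to 25.7 to 29.9 FPKM, Cdh16 to 5.75 to 6.88 FPKM and Cldn2 from 32.0 to 33.5 to 0.561 to 0.608 FPKM. The summed level of the 8 epithelial markers measured was 256 to 319 FPKM in Control and 34.9 to 39.6 FPKM in TGF-β1 libraries, while Cdh1 and Krt8 were below 1 FPKM throughout. The low keratins Krt18 (1.38 to 1.81 FPKM with TGF-β1) and Krt19 (0.796 to 1.22 FPKM) were above their Control levels instead. Krt7, also low, went the other way, from 1.325 to 1.553 FPKM in Control to 0 to 0.2055 FPKM with TGF-β1. All 3 tested podocyte markers (Wt1, Podxl and Synpo) were also lower, and Nphs1 was below 1 FPKM in every library. The sum of 6 macrophage markers was 87.0 to 114 FPKM in Control and 9.03 to 11.3 FPKM in treated libraries, most of it Cd14 (78.8 to 104 and 6.77 to 8.29 FPKM). Of the 3 tested macrophage markers Cd14 and Csf1r were lower and Cd68 was not called. The part of these markers in the changes of Egfr, Erbb2 and Met was not tested.

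The order of levels changed within the family. In Control cells Hbegf was highest, followed by Egfr, and the ranges of Met, Erbb2 and Nrg1 overlapped one with the next. Ereg followed. The range of Areg overlapped those of Erbb3 above it and Hgf below it, while Erbb3 (at least 0.0798 FPKM) and Hgf (listed at 0) did not overlap. With TGF-β1 the order was Hbegf, Nrg1, Egfr, Met, Erbb2, Areg, Ereg, Erbb3 and Hgf, and no neighbours overlapped. Nrg1 had thus moved from the level of Erbb2 and Met to above Egfr, and Areg from below Ereg to above it.

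The balance of ligand to receptor transcripts differed between the groups, without overlap. The 4 ligands summed to 60.8, 55.1 and 75.1 FPKM in Control and 163, 178 and 166 FPKM in TGF-β1 libraries. The 3 ERBB receptors summed to 40.7, 46.3 and 43.7 FPKM and to 26.5, 28.0 and 24.2 FPKM. The ratio of the sums was 1.497, 1.19 and 1.72 in Control libraries and reached 6.15, 6.35 and 6.87 with TGF-β1, which describes transcripts and not proteins. Hbegf made up most of the ligand sum in both groups, with 81.2% ± 1.28 without and 76.3% ± 0.598 with the treatment (SD, n = 3). The share of Nrg1 was 18.04% ± 1.21 and 20.9% ± 0.794, and that of Areg and Ereg together was 0.733% ± 0.255 and 2.79% ± 0.226. These sums, their ratio and the shares each gave p = 0.1 (exact permutation test, two-sided), the smallest that 3 against 3 libraries allow.

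Ratios between receptors were lower in treated libraries. The ratio of Erbb2 to Egfr was 0.371, 0.471 and 0.386 in Control and 0.222, 0.226 and 0.227 in TGF-β1 libraries. Met stood to Egfr as 0.453, 0.388 and 0.426 without and 0.323, 0.335 and 0.342 with TGF-β1. The ratio of Erbb2 to Met was 0.819, 1.21 and 0.905 and then 0.689, 0.675 and 0.664. In all 3 ratios the treated libraries lay below the control libraries. Among the 2 abundant ligands, the ratio of Nrg1 to Hbegf was 0.215, 0.244 and 0.209 in Control libraries and 0.279, 0.282 and 0.259 with TGF-β1, again without overlap. Each of the 4 ratios gave p = 0.1 (exact permutation test, two-sided), which is the smallest that 3 against 3 libraries allow, so none could pass 0.05. A ratio within a library is free of the scaling between libraries.

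The other EGF family ligands and ERBB4 gave no called gene in the tested rows. Of 8 such genes 7 were measured, and Nrg3 was not analysed here. Only Nrg4, a ligand of ERBB4, had a mean of at least 1 FPKM, at 9.10, 7.22 and 3.88 FPKM in Control and 4.59, 3.28 and 3.91 FPKM in TGF-β1 libraries. The groups overlapped, with a log2 change of -0.59 (95% interval -1.26 to 0.07, limma adjusted p = 0.122). Without Control replicate 3 the change was -0.89 and Nrg4 passed the threshold (adjusted p = 0.0105, against up to 0.436 under the other alternatives). Its row names a transcript annotated for nonsense-mediated decay.

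Nrg2, another neuregulin, was at 0.671, 0.429 and 0.567 FPKM in Control and 0.192, 0.212 and 0.132 FPKM with TGF-β1. It was below the level required for testing and was lower in the fit without that filter (log2 change -0.40, limma adjusted p = 0.0113). The scale compresses this change, as mean Nrg2 was 3.12-fold lower. Nrg2 thus had the opposite direction to Nrg1 at a level far below it. Tgfa, the ligand TGF-α, was at 0.102, 0.153 and 0.156 FPKM in Control and at 0, 0 and 0.0778 FPKM with TGF-β1 (adjusted p = 0.0668 in the same fit). Egf, which gives the family its name, was at 0.0864, 0.202 and 0.355 FPKM against 0.203, 0.189 and 0.383 FPKM, with overlap (adjusted p = 0.732).

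Among proteases that shed ERBB ligands or cleave pro-HGF, their cofactors and inhibitors, 5 of 11 tested genes were upregulated and 2 downregulated. The changed share was 63.6%, against 48.1% of all tested rows, and the median log2 change was 0.12, against -0.02. Adam12, a metalloprotease that can shed HB-EGF, rose by 2.85 on the log2 scale, with 3.73 ± 0.186 FPKM in Control and 33.2 ± 1.49 FPKM in TGF-β1 libraries (SD, n = 3, limma adjusted p = 5.96e-06). Plau, the urokinase protease, rose by 2.15 on the log2(FPKM + 1) scale from 2.58 ± 0.2996 to 14.9 ± 1.07 FPKM (5.77-fold in means). Cd44, a surface glycoprotein that can present heparin-binding growth factors, rose by 1.82 from 25.1 ± 2.30 to 91.7 ± 14.5 FPKM. Spint2, an inhibitor of the proteases that activate HGF, fell by 1.61 on that scale from 6.61 ± 0.789 to 1.49 ± 0.190 FPKM (4.43-fold in means). Plat, tissue plasminogen activator, fell by 0.96 from 105 ± 1.64 to 53.8 ± 2.96 FPKM.

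Of the main sheddases of EGFR ligands, Adam17 was called higher and Adam10 was not called. Adam17 was at 12.3, 9.32 and 9.76 FPKM in Control and 17.7, 16.3 and 12.6 FPKM in TGF-β1 libraries, a log2 change of 0.53 (limma adjusted p = 0.033, and 0.0202 to 0.199 under the alternatives). Adam10 was at 55.8, 48.9 and 47.5 FPKM against 45.2, 45.2 and 47.1 FPKM (log2 change -0.14, adjusted p = 0.216), in a row that names a transcript annotated for nonsense-mediated decay. Over the alternatives its log2 change ran from -0.33 to -0.07 and its adjusted p from 0.0127 to 0.466, and it was called lower under quantile normalization and under scaling to the protein-coding sum. Neither was named by the rule for list genes, and both were added after their values were seen.

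Adaptors and brakes of the receptors moved in both directions. Of 19 tested genes 8 were upregulated, 5 were downregulated and 6 were not called (68.4% changed, median log2 change 0.20). Over all tested rows 48.1% changed, 24.5% were upregulated and 23.6% downregulated, and the median was -0.02. Sh3kbp1, an adaptor in the uptake of ligand-bound receptors, rose by 2.40 on the log2 scale to a mean of 157 ± 13.3 FPKM, against 28.9 ± 1.75 FPKM in Control (SD, n = 3, limma adjusted p = 1.72e-05). Of the LRIG membrane proteins, Lrig1, which promotes the breakdown of ERBB receptors, rose by 1.42 on the log2 scale to 14.5 ± 1.07 FPKM, and Lrig3 rose by 0.99 to 22.2 ± 0.945 FPKM. Lrig2 fell by 0.84 to 2.21 ± 0.159 FPKM, so the 3 related genes did not move as one. Gab1, the docking protein of MET, fell by 0.63 from 14.5 ± 0.897 to 9.01 ± 0.387 FPKM. Ptprj, a phosphatase of both receptor families, fell by 0.65, in a row that names a 513-nt processed transcript.

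Genes known to respond to the ERK cascade, which lies downstream of EGFR and MET and of many other receptors, were mostly higher. Of 18 tested genes 13 were upregulated and 3 downregulated (88.9% changed), against 24.5% and 23.6% of all tested rows, and the median log2 change was 1.07, against -0.02. Myc, a transcription factor of cell growth, rose by 2.11 on the log2 scale to a mean of 35.6 ± 3.47 FPKM, against 7.49 ± 0.628 FPKM in Control (SD, n = 3, limma adjusted p = 3.53e-05). Dusp4, a phosphatase of ERK, rose by 1.94 on the log2(FPKM + 1) scale to 8.23 ± 1.91 FPKM (5.94-fold in means). The ETS factor Etv4 rose by 1.72 to 46.8 ± 1.34 FPKM. The immediate early genes Egr1 and Fos fell by 1.33 and 1.29 on that scale, to 17.8 ± 2.22 and 1.54 ± 0.117 FPKM with TGF-β1. Their means were 2.61-fold and 3.42-fold lower. Spry2, a feedback inhibitor, fell by 0.68 to 7.88 ± 0.748 FPKM. The list was drawn up with earlier results of these data known, and the activity of ERK was not measured.

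**Figure D4:**
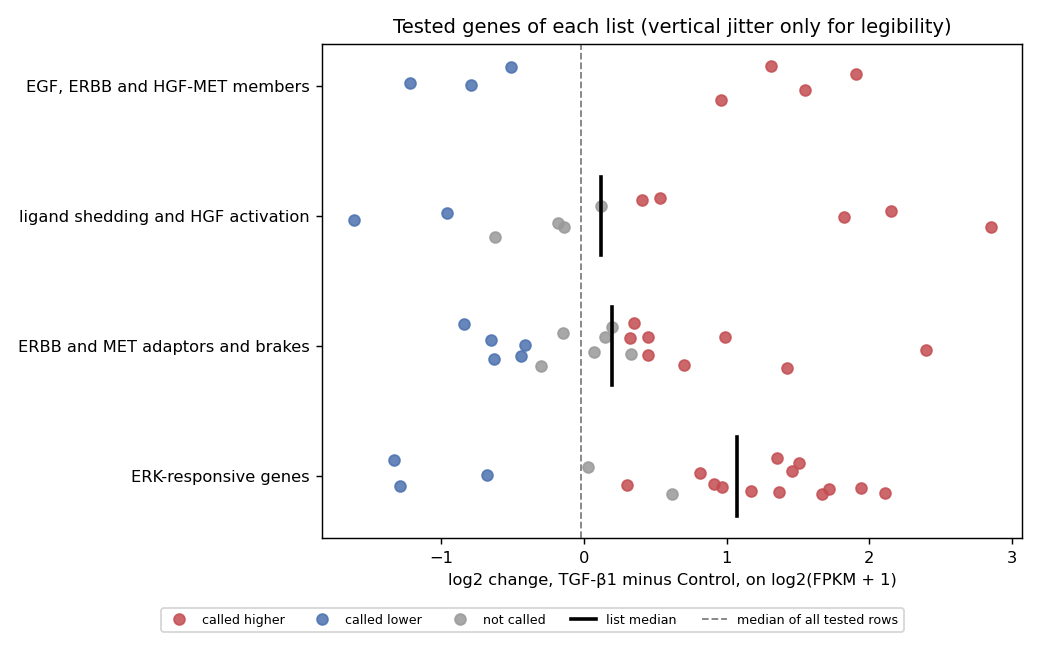
Log2 change (TGF-β1 minus Control) of each tested gene of the family and of 3 related lists, with red for upregulated, blue for downregulated and grey for not called, black bars for list medians and a dashed line for the median of all 11898 tested rows (-0.02). The ERK-responsive genes lie mostly to the right (median 1.07), whereas the adaptors and brakes lie on both sides (median 0.20).

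Genes with a pattern most like that of the members with the largest rise and fall were sought among tested rows of protein-coding genes. The measure was the root mean square difference of log2(FPKM + 1), centred on each gene's mean, over the 6 libraries. Closest to Areg were Ptprn (0.068), Gsr (0.090) and Stard4 (0.092), which rose by 1.96, 1.91 and 1.89 on the log2 scale. Their levels were higher than that of Areg, with Control means of 10.94, 10.15 and 3.98 FPKM and TGF-β1 means of 45.4, 40.8 and 17.4 FPKM. The likeness holds on log2(FPKM + 1) and not for the fold, as mean Areg went from 0.0601 to 3.00 FPKM. Closest to Erbb2 were Krba1 (0.048), 4930423O20Rik (0.053) and Chst15 (0.057), with log2 changes of -1.20, -1.26 and -1.19 and TGF-β1 means of 3.01, 1.28 and 2.29 FPKM.

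Rows of Nrg1, Egfr, Erbb2 and Met name 1 of 3, 6, 3 and 7 annotated transcripts, and the sources leave unsaid if the value covers the whole gene. Hbegf, Areg, Ereg, Erbb3 and Hgf have 1 annotated transcript each, so this limit does not touch them.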

How the data were processed

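RNA-Seq libraries of Control and TGF-β1-treated cells (3 of each) were used. Per the labels and methods, the authors filtered reads by quality and aligned them to mm9 with TopHat (TopHat2 2.0.11 in the submitters' processing notes). The authors estimated FPKM with Cufflinks and tested differential expression with DESeq. The deposited table holds FPKM in 1 column per library, for 19730 rows with a transcript identifier and symbol, and 0 columns were unmatched. The test used here is for FPKM and differs from theirs.

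A mean of 1 FPKM or more over the 6 libraries was required, and the 11898 rows that met it were tested on log2(FPKM + 1) with limma 3.58.1 in R 4.3.3 (lmFit, eBayes with a mean-variance trend, two-sided). Values were adjusted by Benjamini-Hochberg over all tested rows, and an adjusted p under 0.05 was called. The fit was checked on simulated data. Gene positions came from GENCODE M1, where 19699 rows were found by transcript identifier. Coordinates are 1-based.

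Depth was estimated from single-transcript protein-coding genes of at least 1000 nt with FPKM under 0.6, assuming fragments of 200 nt. In each library 99.5% to 99.8% of these values were within 0.1 of a whole number of fragments. Intervals from fragments cover counting error only, and no count model was run.

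Named genes were the members, the rest of the EGF family, the 3 called genes with the largest change in each direction from each of 3 lists where groups did not overlap, and the 3 most alike genes of the members with the largest rise and fall. Members and lists were chosen with earlier results of these data known. Alternatives varied the pseudocount, filter, scaling, variance model, threshold and libraries. Other steps used pandas 2.3.3, scipy 1.17.1 (for intervals) and numpy 2.4.6 under Python 3.11.15, with plots by matplotlib 3.10.9.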

Additional observations from a re-analysis of the deposited data

How the results depend on the processing

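The 7 tested members kept their direction and passed the threshold in all 124 combinations of gene and alternative (18 alternatives), with limma adjusted p of at most 0.0225. So did the genes of the 3 related lists that were named by the rule, in all 306. For Areg and Ereg this says little, since they were tested only because of their level with TGF-β1. It also says little for the list genes, which were picked as called, without overlap and with the largest changes. Adam17 and Adam10, named outside that rule, each changed call under some alternatives (limma adjusted p up to 0.199 and down to 0.0127). Areg and Ereg drop out when a mean of at least 3 FPKM is required, which leaves 2 upregulated members. Of the other EGF family genes 1 was changed without the filter on low values (Nrg2). Leaving out 1 library at a time gave 0 to 1 changed genes of that list, 1 being Nrg4 (log2 change -0.89) without Control replicate 3. In replicates 1 and 3 alone 8 adaptors and brakes were changed, against 13, with 4 libraries in the fit. At an adjusted p under 0.01, 3672 of all tested rows were changed. Scaling each library to the same FPKM sum over rows of protein-coding genes of at least 300 nt, an alternative chosen after seeing the data, shifted the median of all genes to -0.19. It gave 2015 higher and 3927 lower rows, against 2911 and 2810, with log2 changes of 1.12 for Hbegf, 1.36 for Nrg1, -0.70 for Egfr and -0.96 for Met.

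Libraries with the same number had correlated deviations of 0.0921, 0.232 and 0.0853, and the sources do not tie the numbers to a shared culture, so they were not taken as pairs. With the replicate block 5391 rows and all 7 tested members were changed. With at most 11 fragments of Erbb3 and 1 of Hgf in a library, no difference in either gene was detected by limma. The log2(FPKM + 1) scale leaves almost no room for a change at such levels, so this does not show that they were unchanged.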
